A study of Mus musculus with 6 samples.

Results

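Circulating donor CD8+ T cells were examined for the mRNA of 10 genes of the amino acid response and of serine synthesis: Atf4, Ddit3, Trib3, Sesn2, Asns, Phgdh, Psat1, Psph, Shmt2 and Mthfd2. These genes were picked by symbol and not by their values, although earlier results of these data were known. They are 10 of the 14051 genes listed for the series. Bulk RNA-Seq had been performed on 6 libraries of T cells collected from BM on day 5 after BMT, 3 from GC-treated and 3 from vehicle-treated recipients. The B6D2F1 recipients were irradiated and given purified CD3+ T cells of B6.CD45.1 donors, so the T cells of both groups were in an allogeneic host. The GC-treated mice were injected i.p. with dexamethasone, a synthetic glucocorticoid, at 5 mg/kg/day from day -1 to day 5, and the vehicle-treated mice with methyl β-cyclodextrin in PBS over the same days. An antibody to CD45 given i.v. shortly before collection marked the cells inside vessels, and it was the marked donor CD8+ cells that were sorted. The BM of several mice was pooled within a group, and it is not stated if every library came from a separate pool. The sources read here give no age for the recipients. The p-values below therefore measure the spread between libraries, part of which may be technical.

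When amino acids run short, uncharged tRNA activates the kinase GCN2, which phosphorylates the translation factor eIF2. General translation then slows while the mRNA of the transcription factor ATF4 is translated more, so ATF4 activity can change without any change in Atf4 mRNA. ATF4 acts on genes of amino acid uptake and synthesis, among them those that make serine from a glycolytic intermediate and those that pass its carbon to folate in mitochondria. T cells that divide after activation are known to draw on serine and on the one-carbon units it yields for purine synthesis.

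The sequence by which ATF4 and its C/EBP partners bind many of these genes is often written as TGATGNAA, a composite element. It was searched for on both strands in the promoter of each gene, taken as 250 bases before to 50 bases after the transcription start in the RefSeq table for the build GRCm38.p6. All 10 genes had a promoter there, and the element was found in the promoters of 2 of them, Asns and Trib3. These 2 windows are shown because they hold the letters that the other 8 genes lacked in the bases searched. Each runs from 100 bases before the start to 30 bases after it on the minus strand, with the element in capitals, and the windows lie at chr6:7693180-7693309 for Asns and chr2:152344031-152344160 for Trib3.
Asns: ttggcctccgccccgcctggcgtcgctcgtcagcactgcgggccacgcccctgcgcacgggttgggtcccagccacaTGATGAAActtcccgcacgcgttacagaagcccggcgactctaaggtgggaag
Trib3: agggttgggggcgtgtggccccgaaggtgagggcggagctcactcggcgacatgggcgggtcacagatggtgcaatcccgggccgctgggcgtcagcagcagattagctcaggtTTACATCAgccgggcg
In Asns the element read in the direction of the gene and began at position -23 from the start, whereas in Trib3 it read on the opposite strand and began at position 15 of the transcribed bases. The same letters were present in 3.97% of all 32851 promoters of the table and in the promoters of 2.84% of the 9205 tested genes that had one. A match describes the letters of the window and not binding by a factor.

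Depth on the genes of the table was 67887570 to 76888118 reads in the GC-treated and 60949593 to 64801008 reads in the vehicle-treated libraries. Values are normalized counts, the reads of a gene divided by a size factor of the library. A gene was tested where this value was at least 10 in at least 3 libraries, which 11649 genes met, and all 10 genes described here were among them. Differences were tested with limma on log2(normalized count + 1), and each log2 fold change is of the GC-treated over the vehicle-treated mean on this scale, with Benjamini-Hochberg adjustment over the 11649 genes. Cd8a had 68730 to 93850 normalized counts in GC-treated and 63285 to 84617 in vehicle-treated libraries, and the 9 CD4 markers together took 0.0229 to 0.0245% of reads in GC-treated and 0.0233 to 0.0288% in vehicle-treated libraries. Of 17 neutrophil markers 13 were listed. Their summed share was 0.00288 to 0.0191% of reads in GC-treated and 0.000758 to 0.00674% in vehicle-treated libraries. Ltf, Retnlg and Mmp8 were at 0 in at least 1 library. Single markers did not all follow the sum. Ltf was highest in GC-treated 2, Mmp8 in GC-treated 3 and Mpo in vehicle-treated 3, while Elane was lowest in GC-treated 2. Of 9 erythroid markers 7 were listed, with a summed share of 0.000455 to 0.00056% in GC-treated and 0.000602 to 0.00122% in vehicle-treated libraries, ranges that did not overlap, and Slc4a1 was among those at 0 in at least 1 library. Of 8 genes listed as a check of the treatment, the glucocorticoid receptor and genes it is known to induce, 7 were tested, 1 was positive and 6 were negative, with a median log2 fold change of -0.23 and none past the adjusted threshold of limma. Dusp1, a phosphatase gene, was the positive one, with 9343, 8495 and 6076 normalized counts in the GC-treated libraries, against 6151, 5872 and 5048 in the vehicle-treated ones (log2 fold change 0.47). Fkbp5, a co-chaperone gene, had 21148, 16401 and 14780 in the GC-treated libraries, against 24889, 32705 and 21271 in the vehicle-treated ones (log2 fold change -0.59), and the groups overlapped for the other 6 tested genes, Dusp1 included. The list thus held both directions, but most of its tested genes were lower with GC. For the targets among these, that is opposite to the known induction. Directions below follow the labels. As these are bulk samples, fewer cells of a type and less RNA per cell cannot be told apart.

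No gene of the amino acid response or of serine synthesis passed the test at an adjusted p under 0.05. Among all 11649 tested genes limma called 0%, with 838 at an unadjusted p under 0.05. That unadjusted count depended on single libraries, from 274 without vehicle-treated 2 to 2395 (971 higher and 1424 lower with GC) without GC-treated 1, where Ddit3 joined Sesn2 under this threshold. On the recovered reads edgeR had 708 genes at that unadjusted level and called 0, while DESeq2 had 988 and called 2, both lower with GC and neither of them among the 10. At that unadjusted threshold, 0 of the 10 genes were higher with GC, against 2.12% of all tested genes, and 1 of the 10, Sesn2, was lower, against 5.07%. Every GC-treated library lay above every vehicle-treated one for 1 of the 10 genes, Ddit3, and below for 1, Sesn2, against 6.4% of all tested genes in each direction. These counts lay near the background of the whole table. For 6 of the genes, Atf4, Phgdh, Psat1, Psph, Shmt2 and Mthfd2, the 95% interval of the fold change stayed within 1.5-fold in either direction, so that a larger difference in their mRNA is outside the interval. The median log2 fold change of the 10 genes was 0.09, with 7 positive and 3 negative, and that of all tested genes was -0.01.

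**Figure D1:**
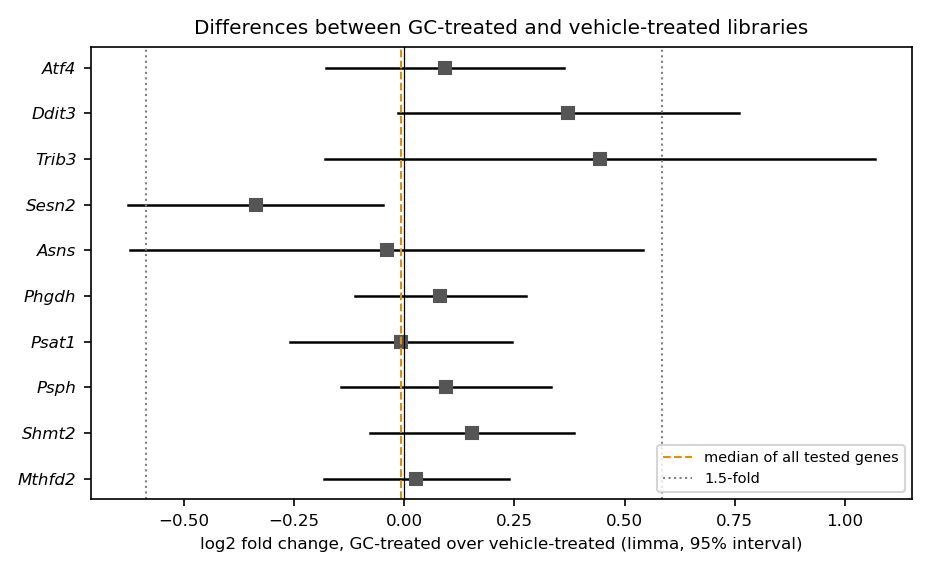
Log2 fold change of GC-treated over vehicle-treated libraries for the 10 genes (x axis), with 95% intervals from limma as bars and dotted lines at 1.5-fold in either direction. The estimates run from -0.34 for Sesn2 to 0.44 for Trib3, and the intervals of Ddit3, Trib3, Sesn2 and Asns reach beyond a dotted line.

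Atf4, which encodes the central transcription factor of the response, lies on chr15:80139372-80141745 (GRCm39, plus strand). The GC-treated libraries had 8275, 7256 and 9942 normalized counts of Atf4, against 7643, 7700 and 8365 in the vehicle-treated libraries. The GC-treated libraries held both the lowest and the highest value, and the groups overlapped. The means were 8491 ± 1356 and 7903 ± 401 (SD, n = 3 each), and the log2 fold change was 0.09 (SE 0.12, limma adjusted p = 0.786), with a fold interval of 0.885 to 1.29.

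Ddit3, which encodes CHOP, a C/EBP-family partner of ATF4 that is known for its part in death under prolonged stress, lies on chr10:127124268-127132163. It had normalized counts of 531, 651 and 630 in the GC-treated libraries, against 516, 401 and 485 in the vehicle-treated libraries. All 3 GC-treated values were above all 3 vehicle-treated ones, with a gap between 531 and 516 that was small beside the spread within either group. The means were 604 ± 64.3 and 467 ± 59.4 (SD, n = 3 each), a fold of 1.29 with a 95% interval of 0.990 to 1.69 (log2 fold change 0.37, SE 0.17, limma unadjusted p = 0.0575, adjusted p = 0.62). The library kit does not mark strand, and 778 of the 979 exonic bases of the main Ddit3 transcript, 79.5%, are shared with Mars1, the cytosolic methionyl-tRNA synthetase gene on the opposite strand. Mars1 was the more abundant of the pair, with 16088, 14816 and 17616 normalized counts in the GC-treated and 14667, 15487 and 17050 in the vehicle-treated libraries, and its log2 fold change was 0.04. Whether a read of the shared bases came from Ddit3 or from Mars1 cannot be told, so the Ddit3 values are uncertain. The summed share of the neutrophil markers was also highest in GC-treated 2, at 0.0191% of reads, and lowest in vehicle-treated 2, at 0.000758%. These were the libraries with the highest and the lowest Ddit3. The order of the others differed, as vehicle-treated 3 had a larger share than GC-treated 1, 0.00674% against 0.00288%, but less Ddit3. The part of these markers in the Ddit3 values was not tested.

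**Figure D2:**
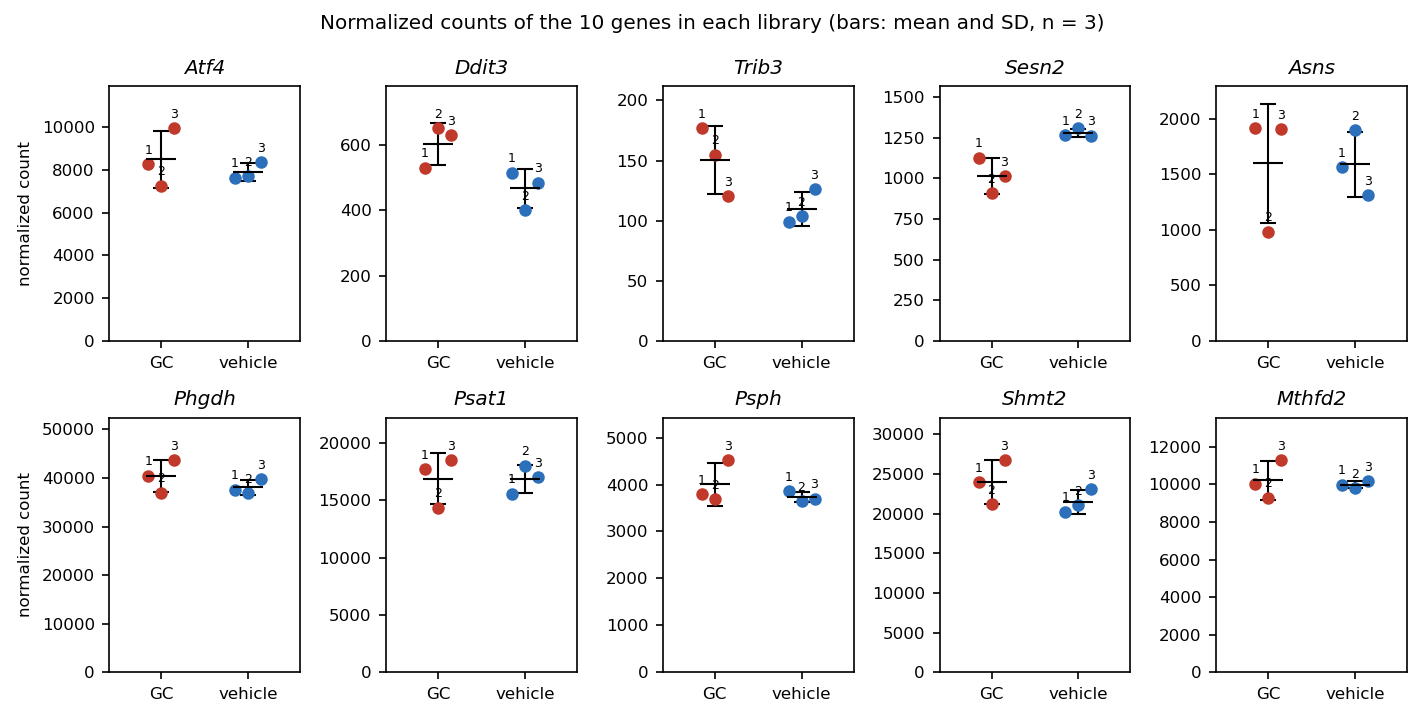
Normalized counts of each of the 10 genes (y axis, from 0) in the 3 GC-treated libraries and, to their right, the 3 vehicle-treated libraries, with points for libraries and the mean ± SD of each group. The groups separate for Ddit3 (531 to 651 against 401 to 516) and Sesn2 (907 to 1127 against 1260 to 1306) and overlap for the other 8 genes.

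Trib3 and Sesn2 encode products that act back on the response. Trib3 encodes a pseudokinase that binds ATF4 and CHOP and restrains them, and it lies on chr2:152179337-152191958. It had 177, 155 and 120.4 normalized counts in the GC-treated libraries, against 99.2, 104 and 126 in the vehicle-treated libraries. The values of GC-treated 1 and 2 were above the vehicle-treated range, whereas GC-treated 3 fell inside it. Trib3 rested on only 91 to 204 reads per library. Its log2 fold change was the highest of the 10 genes at 0.44, with an SE of 0.28 and a 95% interval from -0.18 to 1.07 (limma adjusted p = 0.629), so these libraries leave its difference poorly determined.

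Sesn2 encodes sestrin 2, a leucine sensor that holds back mTORC1 when leucine is scarce. It lies on chr4:132219335-132237815. The GC-treated libraries had 1127, 907 and 1012 normalized counts and the vehicle-treated libraries had 1266, 1306 and 1260.3. All GC-treated values were below all vehicle-treated values, and the vehicle-treated libraries spanned a narrow range. The means were 1015 ± 110.2 and 1277 ± 24.8 (SD, n = 3 each), a fold of 0.792 with an interval of 0.648 to 0.968 (log2 fold change -0.34, SE 0.13, limma unadjusted p = 0.0272, adjusted p = 0.62). Its direction was opposite to that of Atf4, Ddit3 and Trib3, of which none passed the test either. The summed share of the neutrophil markers was highest in GC-treated 2 and lowest in vehicle-treated 2. These were the libraries with the lowest and the highest Sesn2. The order of the others differed, as vehicle-treated 3 had both a larger share than GC-treated 1, 0.00674% against 0.00288%, and more Sesn2. The summed share of the erythroid markers separated the groups as Sesn2 did. The part of either marker list in the Sesn2 values was not tested. Sesn1 and Sesn3, the related sestrin genes, had log2 fold changes of -0.06 and 0.02, and the differences between the 3 genes were not tested. Without GC-treated 1, the log2 fold change of Sesn2 was -0.41 and that of Ddit3 was 0.46, with limma adjusted p = 0.147 and 0.211. Sesn2 no longer had an unadjusted p under 0.05 when GC-treated 2 or any 1 vehicle-treated library was left out.

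Asns encodes asparagine synthetase, which makes asparagine from aspartate with glutamine as the nitrogen donor, and it lies on chr6:7671667-7728461. Its promoter window is the first shown above. The normalized counts were 1914, 983 and 1907 in the GC-treated libraries, against 1563, 1898 and 1316 in the vehicle-treated libraries. Asns varied more within the groups than the other 9 genes did, with a highest to lowest ratio of 1.95, and its lowest value was in GC-treated 2. The group means were 1602 ± 535 and 1592 ± 292 (SD, n = 3 each). The log2 fold change was -0.04 (SE 0.26, limma adjusted p = 0.965) and its 95% interval ran from -0.62 to 0.54. As a fold this is 0.650 to 1.46, and a difference within these limits in either direction could not be told from none. The direction changed with the test used and with the library left out.

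The 3 enzymes that make serine showed no difference past the spread between libraries. Phgdh encodes phosphoglycerate dehydrogenase, the first and committed enzyme of the pathway, which oxidises 3-phosphoglycerate. It had 40479, 36991 and 43718 normalized counts in the GC-treated libraries, against 37566, 36913 and 39783 in the vehicle-treated libraries. The means of 40396 ± 3364 and 38087 ± 1504 (SD, n = 3 each) gave a log2 fold change of 0.08 (SE 0.085, limma adjusted p = 0.737). This was the least variable of the 10 genes, with a within-group SD of 0.0942 on the log2 scale, which was exceeded by 84.3% of tested genes. Psat1 encodes the transaminase of the second step. Psat1 had 17740, 14350 and 18523 normalized counts in GC-treated libraries, against 15578, 18013 and 17046 in vehicle-treated libraries. The group means were almost equal at 16871 ± 2218 and 16879 ± 1226 (SD, n = 3 each), and the 95% interval of the log2 fold change ran from -0.26 to 0.25. Psph encodes the phosphatase that releases serine. It had 3791, 3692 and 4522 normalized counts in GC-treated libraries, against 3853, 3643 and 3699 in vehicle-treated libraries, where only GC-treated 3 stood apart from the other 5. Its log2 fold change was 0.10 (95% interval -0.14 to 0.33, limma adjusted p = 0.751). Of the Psph transcript, 465 of 2430 bases are shared with Cct6a on the opposite strand, and a pseudogene of Phgdh is annotated, so the reads of both genes could include those of another locus.

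Shmt2 and Mthfd2 carry the carbon of serine into mitochondrial folate. Shmt2 encodes the mitochondrial serine hydroxymethyltransferase, which yields glycine and a one-carbon unit. It had normalized counts of 23957, 21216 and 26776 in GC-treated libraries, against 20266, 21078 and 23118 in vehicle-treated ones. The means were 23983 ± 2780 and 21487 ± 1469 (SD, n = 3 each), and its log2 fold change of 0.15 (SE 0.10, limma adjusted p = 0.635) had the highest estimate of the 5 serine and one-carbon genes. GC-treated 1 and 3 were above the vehicle-treated range while GC-treated 2 was inside it. Shmt2 without GC-treated 2 had a log2 fold change of 0.24 and an unadjusted p of 0.0406, with an adjusted p of 0.668. Mthfd2 encodes the mitochondrial dehydrogenase and cyclohydrolase of the next step. It had 10030, 9280 and 11288 normalized counts in GC-treated libraries, against 9976, 9801 and 10147 in vehicle-treated libraries, with means of 10199.6 ± 1015 and 9974 ± 173 (SD, n = 3 each). Its log2 fold change was 0.03 (95% interval -0.18 to 0.24), and the vehicle-treated values lay inside the range of the GC-treated ones.

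To compare levels between genes, the normalized counts were divided by the length of the main transcript in kilobases and averaged over the 6 libraries. Phgdh was the most abundant at 20730 ± 1401 per kilobase, above 98.6% of tested genes. Shmt2 followed at 9898 ± 1051, Psat1 at 6441 ± 612, Mthfd2 at 4801 ± 315 and Atf4 at 4708 ± 546. Psph had 1591 ± 136 per kilobase and was the lowest of the serine synthesis genes. The stress-response genes were much lower, with Ddit3 at 547 ± 95.1, Sesn2 at 329 ± 46.0, Asns at 326 ± 78.7 and Trib3 at 62.3 ± 14.4, above only 21.3% of tested genes. The neighbours Mthfd2 and Atf4, and the neighbours Sesn2 and Asns, did not differ beyond their spread over libraries. Among the serine enzymes, the ratio of Phgdh to Psat1 was 3.23 ± 0.24, that of Phgdh to Psph 13.05 ± 0.589 and that of Psat1 to Psph 4.06 ± 0.393 (per kilobase, SD over n = 6), the last ranging between 3.60 and 4.59.

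**Figure D3:**
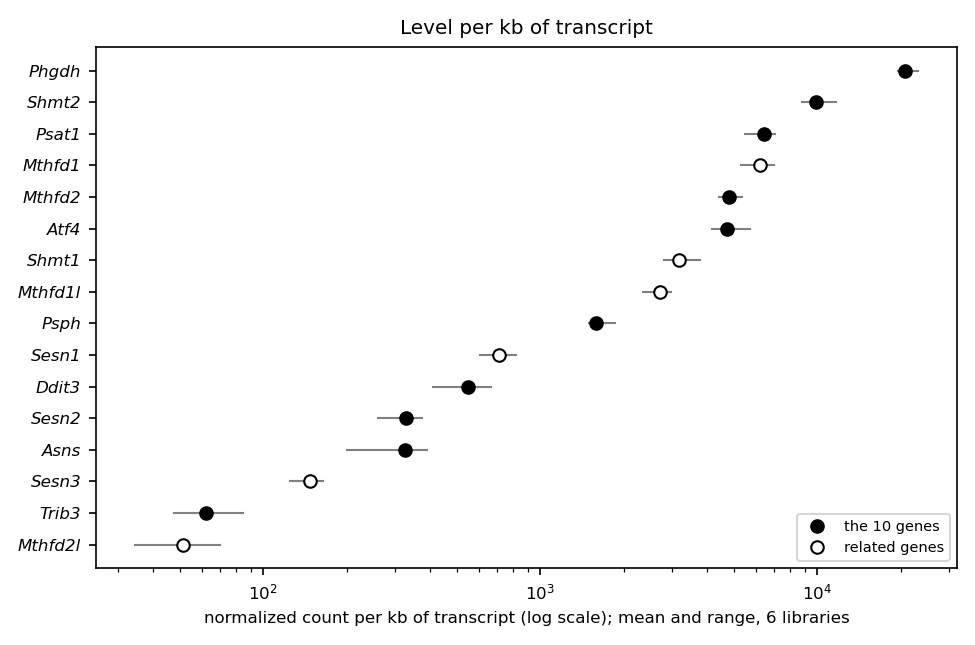
Normalized counts per kilobase of transcript (log axis) of the 10 genes (filled points) and of related genes (open points). Points are means over the 6 libraries of both groups and lines are ranges. Phgdh averages 20730 and Trib3 62.3, and the ranges of the mitochondrial Shmt2 and Mthfd2 lie above those of the related Shmt1 and Mthfd2l.

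The mitochondrial folate enzymes were set beside their counterparts. Shmt2 was 3.13 ± 0.173 times its cytosolic relative Shmt1 per kilobase in GC-treated and 3.11 ± 0.169 times in vehicle-treated libraries (SD, n = 3 each), a range of 2.93 to 3.31 over all 6. Mthfd2 exceeded Mthfd2l, a related mitochondrial enzyme, by 99.9 ± 28.7 times, and the lowest and highest ratios were 74.2 and 140.4. Mthfd2l had the low counts of 117.75, 138.9 and 162.7 in GC-treated libraries, against 135.2, 83.2 and 80.3 in vehicle-treated libraries, and its log2 fold change was 0.51 without passing the test. Mthfd1, the cytosolic trifunctional enzyme, was slightly above Mthfd2 per kilobase, with a ratio of Mthfd2 to Mthfd1 of 0.774 ± 0.0643.

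The libraries differed from each other across most of the 10 genes. GC-treated 3 held the highest normalized count of 6 genes, Atf4, Psat1, Phgdh, Psph, Shmt2 and Mthfd2, and GC-treated 2 held the lowest of 5. The median deviation of the 10 genes from their mean over libraries, on the log2 scale, was 0.03, -0.11 and 0.20 in the 3 GC-treated libraries, and -0.05, -0.08 and 0.02 in the vehicle-treated libraries. The span within the GC-treated group was thus wider than that between the groups. GC-treated 2 also had the lowest share of reads on mitochondrial genes, 0.400%, against 0.902% and 0.615% in the other GC-treated libraries and 0.757 to 1.13% in the vehicle-treated ones, and its part in these values was not tested. The median within-group SD of the 10 genes was 0.148 on the log2 scale, beside 0.18 for all tested genes, and 8 of the 10 genes lay below 0.18. Among 9673 genes with a mean of at least 100, those whose pattern over the 6 libraries lay closest to the mean pattern of the 10 genes were Colgalt1, Farsb, St7, Mrpl39, C1qbp, Tbl3, Nadk and Pgk1, at root-mean-square distances of 0.349 to 0.367 between standardized log2 values. This is a description over 6 libraries with no test.

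**Figure D4:**
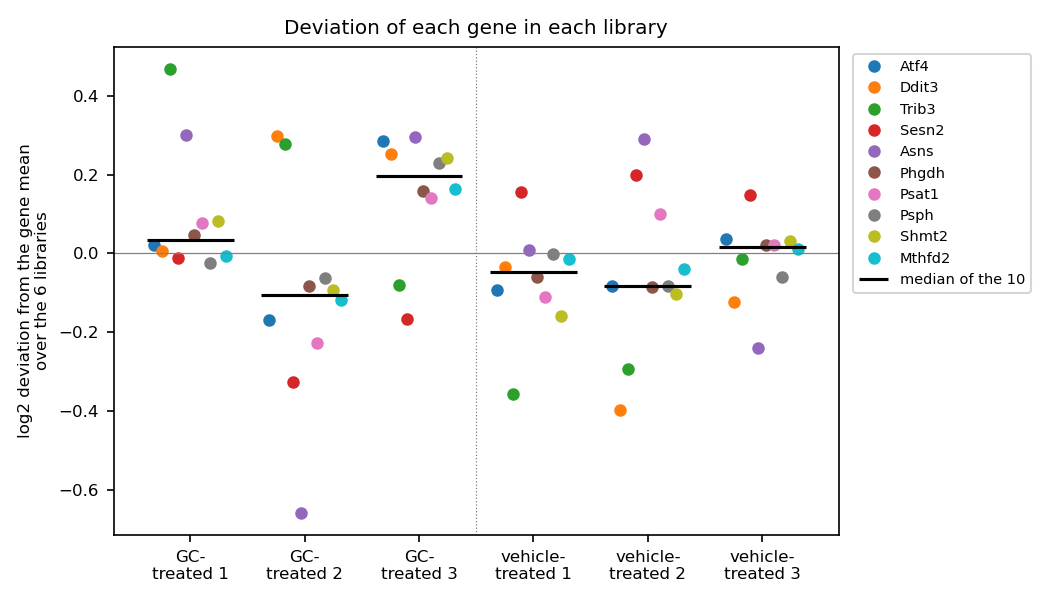
Log2 deviation of each of the 10 genes from its mean over the 6 libraries (y axis), by library, GC-treated at the left and vehicle-treated at the right, with a bar at the median of the genes. The medians are 0.03, -0.11 and 0.20 in GC-treated and -0.05, -0.08 and 0.02 in vehicle-treated libraries, so GC-treated 2 and 3 differ more from each other than the groups do.

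Genes around the pathway were read from lists, none of whose members passed the test at an adjusted p under 0.05. The eIF2 kinases, phosphatase subunits and eIF2B had 14 tested genes, of which 9 had a positive and 5 a negative log2 fold change, with a median of 0.09. The most abundant, Eif2s1, which encodes the phosphorylated subunit, had a log2 fold change of 0.17. Ppp1r15a, which encodes GADD34, the stress-induced subunit that lets eIF2 be dephosphorylated, had normalized counts of 9502, 11099 and 6881 in GC-treated libraries, against 6845, 5839 and 4872 in vehicle-treated libraries. Its groups did not overlap, although 6881 and 6845 almost met, and the log2 fold change was 0.63 (SE 0.18, limma unadjusted p = 0.0070, adjusted p = 0.62). It was the 1 gene of the 14 without overlap and the 1 at an unadjusted p under 0.05. These counts stand beside 6.4% and 2.12% of all tested genes higher with GC. Among 25 other genes known as ATF4 or CHOP targets and partners, 19 were tested, 6 were positive and 13 negative, and the median was -0.08. Cebpb, which encodes a C/EBP partner of ATF4, was the 1 gene of that list with an unadjusted p under 0.05 and had 1099, 1222 and 1294 normalized counts in GC-treated libraries, against 1000, 706 and 925 in vehicle-treated libraries. This 1 of 19 higher with GC stands beside 2.12% of all tested genes. Cebpb is also known to be expressed in myeloid cells. Its lowest value was in vehicle-treated 2, which also had the lowest summed share of neutrophil markers. Its highest value was in GC-treated 3, whereas that share was highest in GC-treated 2. Of 14 monocyte and macrophage markers 12 were tested, and 3 were positive and 9 negative. Their summed share was 0.0324 to 0.0405% of reads in GC-treated and 0.029 to 0.0423% in vehicle-treated libraries. The part of myeloid cells in the Cebpb values was not tested. Ddit4, whose product restrains mTORC1, overlapped between groups with a log2 fold change of -0.65. Aldh18a1, a proline synthesis enzyme and the most abundant of the list, had a log2 fold change of 0.02. Chac1, Cth and Gdf15 were too low to be tested, and no expression values of Vldlr, Fgf21 and Aldh1l2 were analysed here.

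Cytosolic aminoacyl-tRNA synthetases, which load tRNA with amino acids, were positive in 16 of 20 tested genes with a median log2 fold change of 0.06 and no gene at an unadjusted p under 0.05. Cars, the cysteinyl-tRNA synthetase, had groups that did not overlap with a log2 fold change of 0.15, whereas Qars, the glutaminyl-tRNA synthetase, ran the other way at -0.13. The groups thus did not overlap for 1 of the 20 genes in each direction, beside 6.4% of all tested genes in each direction. Vars, the most abundant of them, was at -0.01. Amino acid transporters were positive in 10 and negative in 7 of 17, with a median of 0.03. Slc3a2, which encodes the heavy chain shared by several of these transporters, had 11464, 12636 and 13387 normalized counts in GC-treated libraries, against 11315, 10164 and 10905 in vehicle-treated libraries (log2 fold change 0.21, limma adjusted p = 0.62). Slc1a5, the glutamine transporter with the highest mean in the list, had a log2 fold change of 0.07. Folate, methionine and glycine cleavage genes other than the 10 were positive in 15 and negative in 9 of 24, with a median of 0.07. Sfxn1, which encodes a mitochondrial carrier of serine and so stands before Shmt2, had 16968, 17429 and 19071 normalized counts in GC-treated libraries, against 15235, 14966 and 16493 in vehicle-treated libraries, with no overlap and a log2 fold change of 0.19. In this list the groups did not overlap for 2 of 24 genes higher with GC and 0 lower, beside 6.4% of all tested genes in each direction. Mat2a, which makes S-adenosylmethionine and was the most abundant of the list, had a log2 fold change of 0.06.

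The unfolded protein response of the ER also leads to ATF4, through the kinase PERK. Of its 16 tested genes, 13 were positive and 3 negative, with a median log2 fold change of 0.15. For 6 of them, Hspa5, Pdia6, Sdf2l1, Herpud1, Calr and Manf, every GC-treated library lay above every vehicle-treated one, beside 6.4% of all tested genes. This list, like the others, was chosen with earlier results of these data known, which limits that comparison. Hspa5, the ER chaperone BiP, had 169674, 185706 and 158331 normalized counts in GC-treated libraries, against 152521, 124476 and 148712 in vehicle-treated libraries, and its log2 fold change was 0.27 (limma unadjusted p = 0.0256, adjusted p = 0.62). Hyou1, another ER chaperone, ran the other way with a log2 fold change of -0.53, so the list held both directions. The median deviation of the list on the log2 scale was highest in GC-treated 2, at 0.12, and lowest in vehicle-treated 2, at -0.24. These libraries had the highest and the lowest share of reads on neutrophil markers (0.0191% and 0.000758%). Vehicle-treated 3 had a larger share than GC-treated 1 (0.00674% against 0.00288%) but a lower median deviation, -0.02 against 0.07. The part of these markers in the values of the list was not tested.

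**Figure D5:**
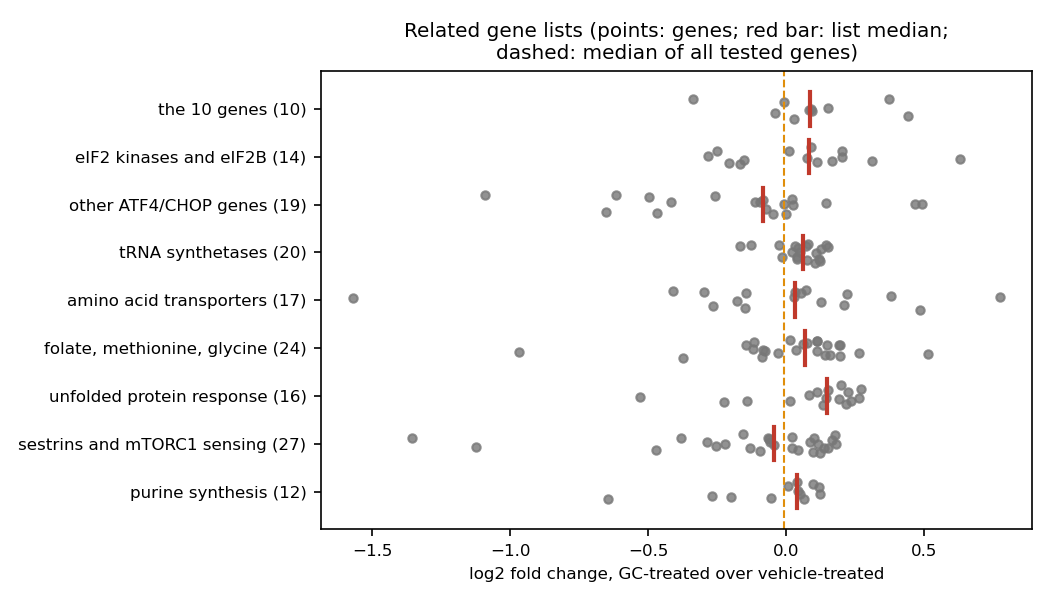
Log2 fold change of GC-treated over vehicle-treated libraries for each tested gene of the lists (points), with the median of each list as a bar. The medians run from -0.08 for the other ATF4 and CHOP genes to 0.15 for the unfolded protein response, beside 0.09 for the 10 genes and -0.01 for all tested genes.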

How the data were processed

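The authors aligned reads with STAR to GRCm39 with a Gencode annotation, counted them per gene with summarizeOverlaps and scaled them with DESeq2, and the submitters' processing notes also name bcl2fastq. Tool versions were not given in the sources used here. In its deposited form the table holds a normalized signal, the read counts of each library divided by 1 size factor, for 14051 symbols. Reads could be recovered, since 100% of values came to a whole number of steps in their library (tolerance 0.001 of a read); the step of GC-treated 2 lies near 1 and could not be judged by the automatic check. The lowest total of a gene was 5 reads. Groups follow the sample labels. The test was limma 3.58.1 in R 4.3.3 with its intensity-dependent prior variance, on log2(value + 1), for genes at 10 or more in 3 or more libraries. Benjamini-Hochberg adjusted values were read at 0.05. The alternatives were edgeR 4.0.16 and DESeq2 1.42.0 on the recovered reads, other pseudocounts, filters and scaling, a replicate block and leaving out each library. The script was tested on simulated data.

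The 10 genes and the lists were chosen with earlier results of these data known. All 10 genes were named, and of each pathway list the gene with the highest mean and up to 3 with the smallest p, up to 3 of the treatment check and of the proliferation list, and the 8 genes nearest in pattern; Pdia6, Herpud1, Calr, Hyou1, Sesn1, Sesn3, the related enzymes, the overlapping genes and the cell type markers were named beyond this after their values were seen. Transcript lengths and coordinates are from Gencode M39 on GRCm39, in which 13727 of the 14051 symbols were found. Promoters are from the RefSeq table of GRCm38.p6, an earlier build, and were matched by symbol. The library kit does not mark strand. The level of 1 erythroid marker is not reported here.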

Additional observations from a re-analysis of the deposited data

How the results depend on the processing

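Under 15 alternatives, 0 of the 10 genes passed an adjusted p under 0.05, the smallest being 0.147 for Sesn2 without GC-treated 1. Of 150 values, 140 kept their direction, and 10 did not. Asns turned to 0.0100 with DESeq2 and to 0.0073 with edgeR, and Psat1 to 0.00049 with DESeq2. Leaving out 1 library moved the log2 fold change of Asns between -0.20 and 0.28, of Atf4 between -0.027 and 0.20, of Psat1 between -0.079 and 0.11 and of Mthfd2 between -0.048 and 0.093. Of the 10 genes, 1 (Ddit3) was higher at an unadjusted p under 0.05 in limma without a trend, beside 231 of 11649 tested genes. Leaving out 1 library gave 0 to 1 of the 10 higher and 0 to 1 lower at that threshold. Among all tested genes, leaving out 1 library gave 79 to 971 higher and 195 to 1424 lower at that threshold. Over all tested genes, those called lower numbered 2 with DESeq2 and 1 in limma without a trend; leaving out 1 library gave 0 to 2 called higher and 0 to 43 called lower, with 2 and 43 without GC-treated 1. The cause was not tested. With the replicate number as a block 0 genes were called higher and 0 lower, and Sesn2 had an unadjusted limma p of 0.0498. The labels do not say if libraries of the same number are paired. Deviations of same-numbered libraries from their group means correlated at 0.06, -0.14 and 0.13 over genes, which cannot decide it. Depth limits Trib3 most.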

Other observations

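The sestrin family and amino acid sensing by mTORC1 had 27 tested genes, 13 positive and 14 negative, with a median log2 fold change of -0.04. Rptor, the substrate-binding subunit of mTORC1, had 3333, 2446 and 1914 normalized counts in GC-treated libraries, against 3421, 3803 and 3188 in vehicle-treated libraries, a log2 fold change of -0.47 (limma unadjusted p = 0.0315, adjusted p = 0.62). Tsc1, which encodes a brake on mTORC1, had a log2 fold change of -0.38 in the same direction, and Sec13, the most abundant of the list, of 0.15. Rragd was low, with 21.6, 21.8 and 14.7 normalized counts in GC-treated libraries, against 88.3, 27.0 and 53.2 in vehicle-treated libraries. At an unadjusted limma p under 0.05, these 3 of 27 genes, Rptor, Tsc1 and Rragd, were lower with GC and 0 were higher. All tested genes had 5.07% lower and 2.12% higher. Of 12 purine synthesis enzymes 8 were positive and 4 negative, with a median of 0.04, and of 7 aspartate, asparagine and glutamine enzymes 6 were positive and 1 negative, with a median of 0.12. None of them passed limma's adjusted threshold. At an unadjusted p under 0.05, 1 of the 12 purine enzymes, Pfas, was lower with GC, and 0 of the 7 other enzymes. These stand beside 5.07% of all tested genes in that direction. Pfas had 3051, 1295 and 2026 normalized counts in GC-treated libraries, against 3013, 3434 and 2950 in vehicle-treated libraries. Paics, the most abundant purine enzyme, had a log2 fold change of 0.04 and Got2, the most abundant of the aspartate enzymes, of 0.09.

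The proliferation markers took 1.05 to 1.16% of reads in GC-treated and 1.12 to 1.21% in vehicle-treated libraries, and 7 of 18 were positive and 11 negative, with a median log2 fold change of -0.03. The 5 serine and one-carbon genes had a median of 0.08. The groups did not overlap for 2 of the 18 proliferation markers in each direction, beside 6.4% of all tested genes in each direction. Among them were Rrm2, a ribonucleotide reductase subunit, at 0.12 and Top2a, a topoisomerase of dividing cells, at -0.40, while Mki67 overlapped at -0.67. At an unadjusted limma p under 0.05, 2 of the 18 were lower with GC, Top2a and Mki67, and 0 were higher. These stand beside 5.07% lower and 2.12% higher among all tested genes.

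The element TGATGNAA was found in the promoters of 8 of 20 other ATF4 and CHOP genes that had a promoter in the table (Atf3, Chac1, Vldlr, Nupr1, Fgf21, Pycr1, Pck2 and Jdp2), 5 of 13 cytosolic synthetases, 2 of 13 amino acid transporters and 0 of 21 other folate genes. It was in 1 of 12 eIF2 genes, 1 of 11 purine enzymes, 1 of 24 mTORC1 sensing genes, 1 of 13 unfolded protein response genes and 1 of 6 aspartate enzymes, and in 0 of 15 proliferation markers and 0 of 6 treatment check genes. Some of these genes were not tested for expression, and the share over all 27025 genes of the promoter table was 4.51%. These are counts of letters, with no test.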
